A study of Homo sapiens with 16 samples.

Results

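Transcripts of 9 genes for integrin subunits and laminin-332 chains (ITGA2, ITGA3, ITGA5, ITGA6, ITGB1, ITGB4, ITGB6, LAMA3 and LAMB3) were followed for 45 h in MCF10HER2 cells exposed to CP724,714, which inhibits the HER2 kinase. The genes were picked by name from the 18190 symbols of the array, where they have 15 of 20589 probes, and the detected probe with the highest mean signal stands for each gene. The partner chain ITGAV is given beside them. MCF10HER2 cells descend from MCF10A, a nontransformed epithelial line of the human breast, and stably over express HER2. Parallel cultures, all in serum-free medium with epidermal growth factor and hydrocortisone but no insulin, received CP724,714 at 1 µM. From 0 to 45 h, 1 array was run every 3 h. Only the 0 h culture was untreated, so 1 untreated and 15 treated arrays of a single cell line are set side by side. No time point has a replicate, so precision is limited by the number of arrays and p-values rest on how far arrays scatter about a fitted curve or a set mean. No vehicle control later than 0 h was analysed here, so the action of the inhibitor and that of time in culture cannot be told apart.

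Integrins are pairs of an alpha and a beta chain that span the plasma membrane and tie the matrix to the cytoskeleton. In breast epithelium the pair of ITGA6 and ITGB4 anchors cells at hemidesmosomes, where it binds laminin-332, a trimer that holds the chains encoded by LAMA3 and LAMB3. ITGB1 is the shared partner of ITGA2 (a collagen receptor), ITGA3 (a laminin receptor), ITGA5 (the classical fibronectin receptor) and ITGA6, while ITGB6 pairs with ITGAV and binds the latent form of TGF-beta.

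Between 10504 and 11629 probes were detected per array. The arrays at 9 and 18 h were dim, with an upper quartile intensity of 397 to 418 against 553 to 804 on the others. The background signal was 135.7 to 148.7 on the 8 arrays up to 21 h and 164.3 to 173.5 on the 8 later ones, so a change at 24 h and a change of array group cannot be told apart. Of 5 basal or stratified epithelial markers, KRT5, KRT17 and KRT6A were detected on all 16 arrays, TP63 on 14 and KRT14 on 1. Of 5 luminal or simple epithelial markers, KRT8, KRT18, KRT19 and EPCAM were detected on all 16 arrays and CDH1 on 15. Of 6 fibroblast markers, COL1A1, COL1A2, LUM and PDGFRB were detected on no array, COL3A1 on 2 and DCN on 16. Of 4 endothelial markers, CDH5 and VWF were detected on no array, KDR on 15 and PECAM1 on 16.

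Of the 9 genes, 8 had a probe detected on all 16 arrays and were tested, and ITGA6 was not detected. ITGB4 climbed within 9 h and stayed high. ITGA5 was high only on the arrays from 3 to 9 h, and LAMA3, LAMB3 and ITGB6 ended below their early levels. By a spline of time in limma 7 of the 8 were time-dependent (adjusted p below 0.05), against 42.6% of all probes tested, and the exception was ITGA3. By a straight line in time 5 of the 8 had a trend, against 24.4% of all probes. Among these 1 rose, ITGB4, against 13.1% of all probes rising, and 4 fell, ITGA5, ITGB6, LAMA3 and LAMB3, against 11.3% falling. At 6 h all 8 stood above the 0 h array, as did 50.6% of all probes, a comparison in which every gene shares that single array. The study used a change of 1.7-fold as its threshold for including genes, taken here against 0 h. Of the 8 genes 6 reached 1.7-fold above 0 h at some time point, against 24.5% of all probes, and none reached 1.7-fold below, against 22.7%. The threshold has no error term, and the genes past it were ITGA2, ITGA5, ITGB1, ITGB4, ITGB6 and LAMA3. ITGB1 passed it on the 24 h array alone and ITGB6 on the 9 h array alone. With no background correction, with normexp from the signals alone or with median scaling, 4 were past it. In a bulk culture, fewer cells expressing a gene and less RNA per cell cannot be told apart.

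**Figure D1:**
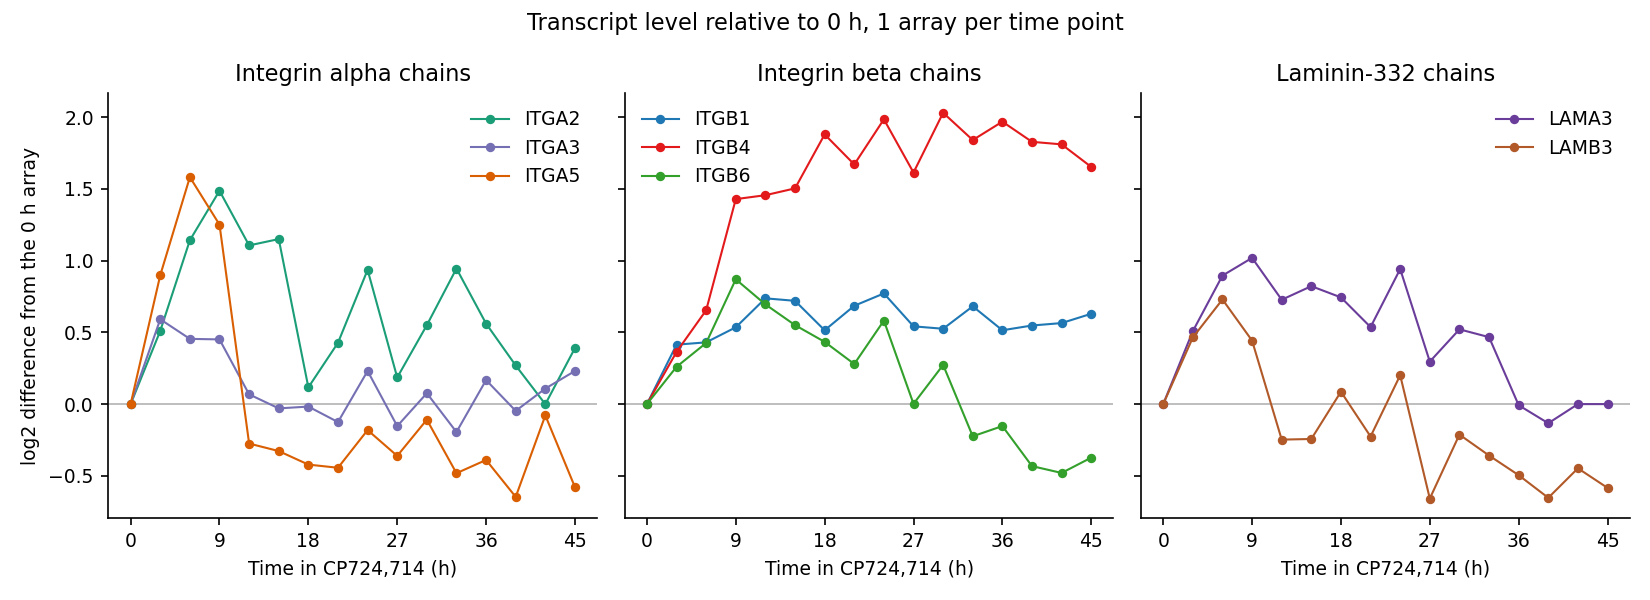
Log2 difference of each transcript from the 0 h array (y axis) against hours in CP724,714 (x axis), with 1 point per array. ITGB4 stays between 1.43 and 2.03 above 0 h from 9 h on, ITGA5 is above 0 h only at 3, 6 and 9 h, and the LAMA3 curve returns to near the 0 h level by 36 h.

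The beta chain ITGB4, the hemidesmosomal partner of ITGA6, had the widest fitted spline of the 8 genes, whereas the ratio of highest to lowest array was larger for ITGA5 (4.69-fold against 4.09-fold). At 3 h intervals from 0 to 21 h its normalised log2 signal was 11.38, 11.75, 12.04, 12.81, 12.84, 12.89, 13.26 and 13.05. From 24 to 45 h it read 13.37, 13.00, 13.41, 13.22, 13.35, 13.21, 13.19 and 13.04. All 15 treated arrays lay above the single untreated one, 13 of them by 1.7-fold or more. The share of all probes that did so was not computed. Every array from 9 h on was above every array before 9 h. The highest level was 4.09-fold of 0 h, at 30 h, and at 45 h it was 3.15-fold. The fitted spline spanned 1.98 log2 units (limma, adjusted p = 3.83e-07), and the linear change over 45 h was a rise of 1.46 ± 0.29 log2 units (SE, adjusted p = 0.00118). Scaled to 45 h, the slope was 3.90 ± 0.53 over the 8 arrays up to 21 h (adjusted p = 0.0073) and -0.33 ± 0.27 over the 8 later ones (adjusted p = 0.428). With the 2 array groups as a block the linear change was 1.79 ± 0.60 (adjusted p = 0.0803), whereas the spline kept an adjusted p of 4.06e-05.

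ITGB1, the partner of most alpha chains here, moved less. It stood at 12.79 on the single 0 h array and between 13.20 and 13.56 on all 15 treated arrays. ITGA10, ITGB8 and LAMA5, given below, also stood above that array on all 15. The share of all probes that did so was not computed. The spline had a range of 0.61 (limma, adjusted p = 0.00378), but that call rests on the 0 h array, since without it the adjusted p was 0.18, and median scaling gave 0.133. A straight line gave 0.25 ± 0.13 (adjusted p = 0.185). The mean was 13.13 ± 0.24 (SD over 4 time points) from 0 to 9 h and 13.45 ± 0.10 from 12 to 21 h, a difference of 0.32 ± 0.10 (SE, limma, adjusted p = 0.0141). The later sets averaged 13.42 ± 0.12 and 13.35 ± 0.05.

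ITGB6, which pairs with ITGAV, stood above 0 h on the early arrays and fell over the course. It read, every 3 h from 0 to 21 h, 7.14, 7.40, 7.56, 8.01, 7.83, 7.69, 7.57 and 7.42. From 24 to 45 h the values were 7.72, 7.14, 7.41, 6.91, 6.98, 6.70, 6.66 and 6.76. The last 5 arrays were all below the 0 h level, with a lowest fold of 0.717 at 42 h. The spline passed the test (range 1.18, limma, adjusted p = 0.000353), as did the linear fall of -0.94 ± 0.24 (adjusted p = 0.00765). Over 24 to 45 h alone the slope scaled to 45 h was -1.99 ± 0.43 (adjusted p = 0.00391), and over 0 to 21 h it was 0.54 ± 0.67 (adjusted p = 0.62). Its raw signal was 1.22 to 2.02 times the detection limit of the array, so the size of its change depends on the background correction, and the linear change was -0.47 ± 0.13 with none. ITGAV, its partner, lay between 9.13 and 9.62 throughout and had no call (spline adjusted p = 0.718).

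Among the alpha chains, ITGA5 had a short early pulse. At 0, 3, 6 and 9 h it was 9.84, 10.74, 11.42 and 11.09, and at 12, 15, 18 and 21 h it was 9.57, 9.51, 9.42 and 9.40. The arrays from 24 to 45 h read 9.66, 9.48, 9.73, 9.36, 9.45, 9.19, 9.76 and 9.26. So 3 arrays were above the untreated level, up to 2.99-fold at 6 h, and the 12 others were below it. The step from 9 to 12 h was -1.53, and 1.06% of all probes tested moved as much or more between those arrays. The 9 h array is a dim one. The mean of 12 to 21 h was lower than that of 0 to 9 h by -1.30 ± 0.23 (limma, adjusted p = 0.000355), and no later set differed from the one before. The spline (range 1.30, adjusted p = 0.022) lost its call without the 3 h array (adjusted p = 0.106), the 6 h array (0.0995) or the 9 h array (0.0768). It was also lost without both dim arrays at 9 and 18 h (adjusted p = 0.105). The linear change was -1.34 ± 0.39 (adjusted p = 0.0168), but within 0 to 21 h it was -3.03 ± 1.28 (adjusted p = 0.137) and within 24 to 45 h -0.52 ± 0.39 (adjusted p = 0.369), and with the 2 array groups as a block the spline had an adjusted p of 0.0665.

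ITGA2, the collagen-binding chain, had values of 7.06, 7.57, 8.20, 8.54, 8.16 and 8.21 from 0 to 15 h. It then went up and down, from 7.17 at 18 h up to 7.99 at 24 h and down to 7.06 at 42 h. The step from 15 to 18 h of -1.03 was matched by 0.291% of all probes. The 18 h array is a dim one. The highest level was 2.80-fold of 0 h, at 9 h, and 14 of 15 treated arrays were above the untreated one. The spline range was 1.18 (limma, adjusted p = 0.0238). The call was lost with median scaling (adjusted p = 0.109), in a spline with 3 degrees of freedom (adjusted p = 0.213) and without any of the arrays at 0 h (adjusted p = 0.0772), 3 h (0.074), 6 h (0.0848), 9 h (0.152), 12 h (0.0673) or 15 h (0.0616). The linear change was -0.49 ± 0.34 (adjusted p = 0.322). The signal was 1.26 to 2.32 times the detection limit, and with no background correction the spline range was 0.69.

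ITGA3, the laminin-binding alpha chain that pairs with ITGB1, had values of 10.91, 11.50, 11.36 and 11.36 from 0 to 9 h, and lay between 10.71 and 11.14 from 12 h on. The mean was 11.28 ± 0.26 (SD over 4 time points) from 0 to 9 h and 10.88 ± 0.08 from 12 to 21 h, a difference of -0.40 ± 0.12 (SE, limma, adjusted p = 0.0152). That call was lost with median scaling (adjusted p = 0.22) and without the 3 h array (adjusted p = 0.0516). Neither the spline (adjusted p = 0.188) nor the straight line (-0.27 ± 0.17, adjusted p = 0.287) passed the test, although the spline did without the 0 h array (adjusted p = 0.00549) or the 24 h array (adjusted p = 0.0482).

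ITGA6 could not be followed. Its single probe had a raw signal of 145 to 238, at 0.772 to 0.997 times the detection limit of the array, and was below that limit on all 16 arrays. The signal was 145 to 179 up to 21 h and 191 to 238 afterwards, a step that the background signal also made. Without the detection filter its linear change was 0.14 ± 0.13 (limma, adjusted p = 0.539). This probe therefore gives no level for the ITGB4 partner, and no ratio to ITGB4 or to ITGB1 was formed. Whether the probe reports the transcript was not tested. Further probes of ITGB1, ITGB4 and LAMB3 were also detected on no array, although another probe of each gene was bright.

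**Figure D2:**
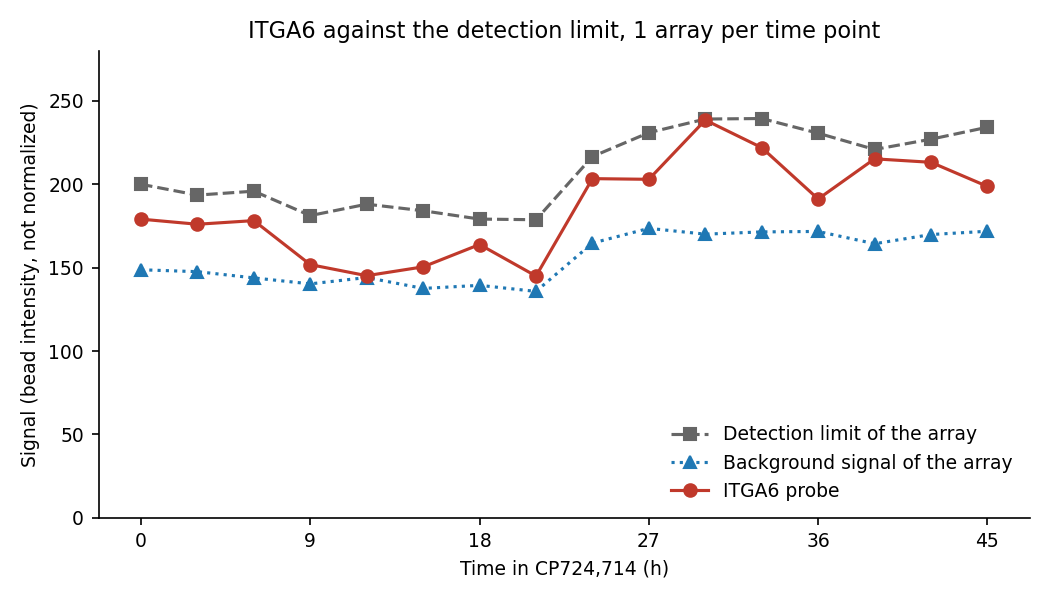
Raw signal of the ITGA6 probe (bead intensity, y axis) on each array against hours in CP724,714, with the detection limit and the background signal of the same array. The probe is below the limit on all 16 arrays, closest at 30 h, and it steps up with the background at 24 h.

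The laminin-332 chains LAMA3 and LAMB3 were followed together with the promoter windows RefSeq lists for them (GRCh38.p14), which are shown because these are the 2 laminin chains among the 9 genes. The windows to print were chosen with the motif matches known. Each window holds the 250 bases before a listed gene start, which need not be the start of the transcript the probe measures. Capitals mark the AP-1 motif TGANTCA and the GC box GGGCGG, searched on both strands, and the windows are LAMA3 at chr18:23872770-23873019 on the plus strand and LAMB3 on the minus strand at chr1:209652426-209652675 (start 1) and chr1:209651375-209651624 (start 3).
LAMA3: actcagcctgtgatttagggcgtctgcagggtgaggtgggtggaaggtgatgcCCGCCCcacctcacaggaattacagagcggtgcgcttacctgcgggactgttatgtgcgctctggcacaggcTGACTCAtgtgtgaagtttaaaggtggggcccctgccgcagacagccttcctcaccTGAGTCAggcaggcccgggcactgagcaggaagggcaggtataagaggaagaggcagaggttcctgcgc
LAMB3 start 1: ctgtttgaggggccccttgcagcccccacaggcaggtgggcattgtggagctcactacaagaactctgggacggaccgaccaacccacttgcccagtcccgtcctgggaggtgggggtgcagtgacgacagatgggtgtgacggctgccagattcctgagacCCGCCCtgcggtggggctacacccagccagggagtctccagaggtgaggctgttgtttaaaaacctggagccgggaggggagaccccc
LAMB3 start 3: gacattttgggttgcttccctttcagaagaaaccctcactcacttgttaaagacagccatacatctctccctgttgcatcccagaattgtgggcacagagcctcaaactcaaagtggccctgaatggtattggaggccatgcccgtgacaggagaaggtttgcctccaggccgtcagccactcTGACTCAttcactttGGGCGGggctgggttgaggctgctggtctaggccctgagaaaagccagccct
The LAMA3 window has 2 AP-1 matches, which begin 125 and 69 bases before the start, and the window of LAMB3 start 3 has 1, which begins 67 bases before it. LAMB3 start 2, whose window overlaps that of start 1 and is not printed, has no AP-1 match. The windows of ITGA5 and ITGB6, which also stood above 0 h from 3 to 9 h and fell by the linear fit, have none either. The ITGA5 window, not printed, ends in the letters TGAGTC, so a match across its edge would not be counted. Of all 35116 listed windows of this length, 6.57% hold the AP-1 motif and 42.6% the GC box. Over 7 of the genes with listed windows, 2 of 11 windows held the AP-1 motif and 8 held the GC box, and the forkhead motif TGTTTAC was in none of them and in 2.98% of all windows. A match is a string of letters and not a bound site.

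LAMA3 measured, every 3 h from 0 to 21 h, 12.64, 13.15, 13.53, 13.66, 13.37, 13.46, 13.38 and 13.18. From 24 to 45 h it read 13.58, 12.94, 13.16, 13.11, 12.63, 12.51, 12.64 and 12.64. The highest level was 2.03-fold of 0 h, at 9 h, and the 45 h array was level with the untreated one. The spline passed the test (range 1.04, limma, adjusted p = 0.00072), and so it did without each single array. The mean of 36 to 45 h, 12.60 ± 0.07 (SD over 4 time points), was below that of 24 to 33 h, 13.20 ± 0.27, by -0.59 ± 0.17 (SE, limma, adjusted p = 0.0287). That call was lost without the array at 24 h (adjusted p = 0.11), 30 h (0.0587), 36 h (0.058), 39 h (0.0764), 42 h (0.0634) or 45 h (0.0644). The linear fall of -0.69 ± 0.24 (adjusted p = 0.0414) was lost without any single array of those at 6, 9, 12, 15, 18, 27, 36, 39, 42 or 45 h (adjusted p from 0.0508 to 0.1). It was also lost without both dim arrays at 9 and 18 h (adjusted p = 0.0897), with no filter on detection (0.0505), in eBayes without the trend (0.0523) and with the 2 array groups as a block (0.583). Within 24 to 45 h the slope scaled to 45 h was -1.88 ± 0.35 (adjusted p = 0.00166), whereas within 0 to 21 h it was 0.79 ± 0.58 (adjusted p = 0.384).

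LAMB3 peaked earlier than the brighter LAMA3 probe and, relative to its own 0 h value, ended lower than that probe. The dim second LAMA3 probe, given below, ended at 0.454-fold of 0 h, lower than LAMB3. The log2 signal of LAMB3 every 3 h from 0 to 21 h was 12.14, 12.60, 12.87, 12.58, 11.89, 11.89, 12.22 and 11.91. From 24 to 45 h it read 12.34, 11.48, 11.92, 11.78, 11.64, 11.48, 11.69 and 11.55. The level reached 1.66-fold of 0 h at 6 h and was 0.667-fold at 45 h, and 5 of 15 treated arrays were above the untreated one. The step from 24 to 27 h was -0.86, and 0.436% of all probes moved as much or more. The spline (range 0.91, limma, adjusted p = 0.0126) and the linear fall of -1.03 ± 0.21 (adjusted p = 0.00125) passed the test, and the mean of 12 to 21 h was below that of 0 to 9 h by -0.57 ± 0.16 (adjusted p = 0.00907). Within 0 to 21 h the scaled slope was -1.26 ± 0.64 (adjusted p = 0.206) and within 24 to 45 h -1.05 ± 0.40 (adjusted p = 0.0675), and with the 2 array groups as a block the spline had an adjusted p of 0.194. The LAMB3 probe is also one whose listed detection p-values (0.0237 to 0.428) do not follow its signal, which was 13.6 to 37.9 times the detection limit, and by the listed values it would be detected on 2 arrays and would not be tested.

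Other probes of these genes did not always move alike. A dim second LAMA3 probe, detected on 15 arrays, fell by 1.24 on the log2 scale (SE 0.18, limma, adjusted p = 7.8e-05) and had 7.31 at 0 h and 6.17 at 45 h, with 6.81 at 3 h and 6.85 at 6 h where the brighter probe was above its 0 h value. A second ITGB1 probe changed by -0.07 ± 0.18 (adjusted p = 0.823), and a further ITGB1 probe, detected on 8 arrays, by 0.23 ± 0.22 (adjusted p = 0.475). Neither passed the spline test (limma, adjusted p = 0.72 and 0.13), which the brightest ITGB1 probe did. Single further probes of ITGB1, ITGB4 and LAMB3 were detected on no array.

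Between successive sets of 4 arrays most calls lay in the first contrast. From 12 to 21 h against 0 to 9 h, 5 of the 8 genes were called in limma, against 35.8% of all probes, and 6 were called in at least 1 of the 3 contrasts, against 41% of all probes. ITGB1 and ITGB4 were higher, with 18.1% of all probes higher, and ITGA3, ITGA5 and LAMB3 were lower, with 17.7% lower. The difference for ITGB4 was 1.02 ± 0.20 (adjusted p = 0.000918). None was called from 24 to 33 h against 12 to 21 h, where 0.121% of all probes were (0.0646% higher and 0.0566% lower). From 36 to 45 h against 24 to 33 h, LAMA3 alone was lower, with 6.1% of all probes lower, and no member was higher, with 5.99% higher. ITGB6 had -0.52 ± 0.19 in that last contrast (adjusted p = 0.0798) and passed without the array at 0 h (adjusted p = 0.0456), 9 h (0.0342) or 33 h (0.0481).

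**Figure D3:**
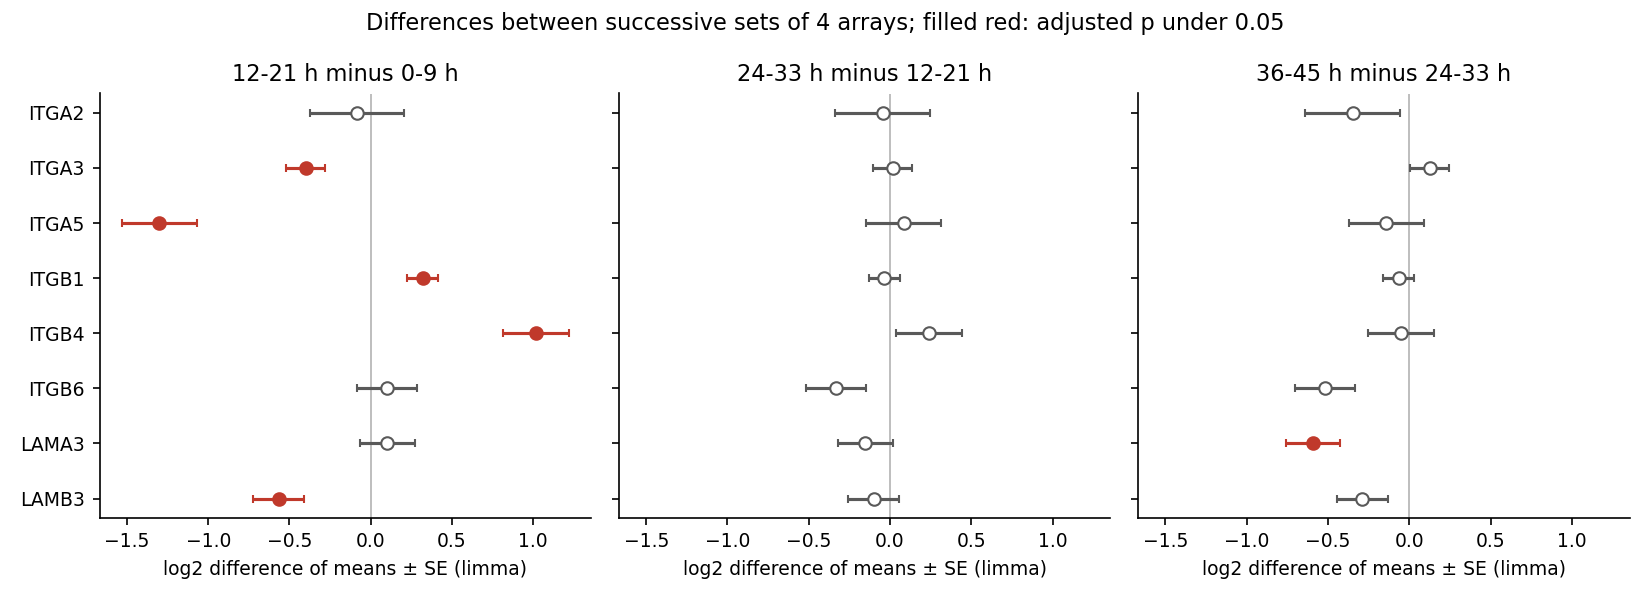
Log2 difference of set means with its SE from limma (x axis) for the 8 tested genes (y axis), in 3 successive contrasts of 4 arrays each. Filled red points passed an adjusted p of 0.05, and they lie in the first contrast except for LAMA3 in the last.

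The partner chains of a receptor or trimer were compared by the slope over time of their log2 ratio, scaled to 45 h. The slope was tested by a two-sided permutation of time (100000 permutations) that treats the arrays as exchangeable. Each change given is along the fitted line and is not the 45 h array against the 0 h array. P-values were adjusted over 6 measured pairs. Every ratio used the brightest probe of each gene, and none was formed with the other ITGB1 or LAMA3 probes. By the linear fit the ITGB1 probe used changed by 0.25, a second one by -0.07 and a further one by 0.23. The LAMA3 probe used changed by -0.69 and the second one by -1.24. Whether the ratios hold with those other probes was not tested. The ratio of ITGB1 to ITGA5 changed by 1.59 ± 0.47 (SE, permutation p = 0.00336, adjusted p over the 6 pairs = 0.0202), and from 12 h on it was above every array up to 9 h. By the same fit the ratio of ITGB1 to ITGA2 changed by 0.74 ± 0.29 (adjusted p = 0.0458), that of ITGB1 to ITGA3 by 0.52 ± 0.23 (adjusted p = 0.0474) and that of ITGB6 to ITGAV by -0.80 ± 0.28 (adjusted p = 0.0399). On the 45 h array itself ITGB1 stood 0.63 and ITGA2 0.39 above 0 h, while ITGB6 and ITGAV were at -0.37 and -0.17 from 0 h. Within laminin-332 the ratio of LAMB3 to LAMA3 changed by -0.34 ± 0.25 (adjusted p = 0.199), which did not pass. Its slope had opposite signs early and late in the course, neither past the threshold, at -2.05 ± 0.61 scaled to 45 h within 0 to 21 h (exact permutation p = 0.02, adjusted p = 0.06) and 0.82 ± 0.30 within 24 to 45 h (exact permutation p = 0.0378, adjusted p = 0.114). Of these 5 ratios 4 passed, most of them close to the threshold. With median scaling none of them passed (adjusted p = 0.0521 for ITGB1 to ITGA5), and leaving out 1 array gave 0 pairs (6 or 39 h), 1 (9, 42 or 45 h), 2 (24, 27 or 30 h), 3 (0, 3, 18, 21 or 33 h) or 4 (12, 15 or 36 h). By the exact test over all orders within 0 to 21 h, only the ITGB1 to ITGA3 ratio passed (adjusted p = 0.0387), and within 24 to 45 h no pair did, the smallest adjusted p being 0.0685.

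**Figure D4:**
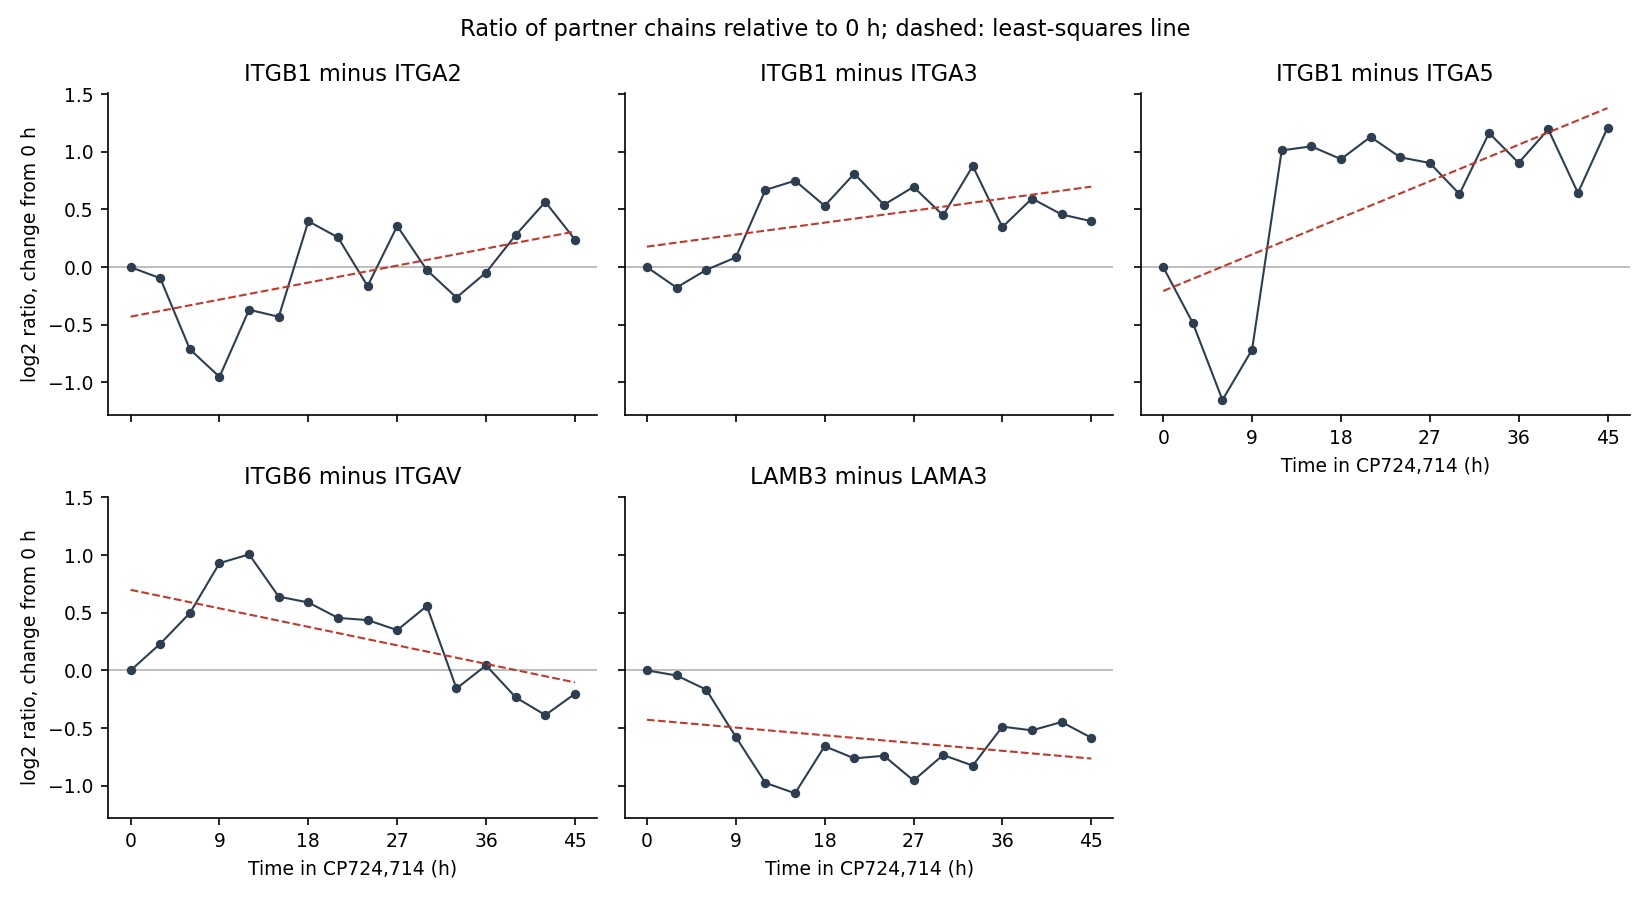
Log2 ratio of 5 pairs of partner chains relative to the 0 h array (y axis) against hours in CP724,714 (x axis), with the least-squares line dashed. The ITGB1 to ITGA5 ratio dips at 3 to 9 h and then stays above 0 h, a step more than a slope.

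The genes whose course was most like that of each time-dependent member, among 8630 other genes detected on all 16 arrays, were named by Pearson's r over the 16 arrays, which the genes share, as a description. For ITGB4 they were LRSAM1 (r = 0.970), POMGNT1 (0.967) and NRBP2 (0.967). For LAMA3 they were MAP2K1 (r = 0.962), a kinase of the MAPK cascade, GAPVD1 (0.940) and SH3BGRL3 (0.932). For LAMB3 they were ISG20 (r = 0.929), SPINK1 (0.922) and TPST2 (0.920). ITGA5 was closest to DDX24 (r = 0.954), SBF1 (0.950) and EGLN1 (0.943), and ITGB1 to SERINC3 (0.963), FLJ20628 (0.940) and FSTL1 (0.919). ITGB6 was closest to PITPNC1 (r = 0.922), ANXA2 (0.921) and NOLC1 (0.915), and ITGA2 to EIF2C2 (0.864) and FAM65A (0.845).

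Other genes of cell adhesion gave the setting. Of 10 tested among 19 other integrin subunits, 4 were time-dependent, 1 rose and 1 fell by the linear fit, with a median change of 0.09, beside 5012 time-dependent, 1579 rising and 1296 falling of 11607 genes tested. ITGB2, the beta chain of the leukocyte integrins, rose by 1.65 ± 0.25 (limma, adjusted p = 0.000105), and ITGAE fell by 0.63 on the log2 scale (SE 0.17, adjusted p = 0.0101). Of the leukocyte markers PTPRC was detected on 7 arrays, CD14 on 16, CD3E on 1 and CD79A on none, and their part in the ITGB2 values was not tested. ITGA10 passed the spline test (adjusted p = 7.48e-05) and went from 6.86 at 0 h to 8.81 at 18 h, and ITGB8 did not (adjusted p = 0.159).

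Of 9 other laminin chains 5 were tested, 4 of them time-dependent, with 2 rising by the linear fit and each of the 5 having a positive linear change. LAMB1, a beta chain of other laminins, rose by 1.38 ± 0.35 (limma, adjusted p = 0.0076), and LAMA5 by 0.50 ± 0.10 (adjusted p = 0.0012). LAMB2 and LAMA2 passed the spline test (adjusted p = 0.0153 and 0.0345) with linear changes of 0.53 ± 0.20 (adjusted p = 0.058) and 0.18 ± 0.14 (adjusted p = 0.389). The LAMA2 probe was close to the detection limit, with a mean raw signal of 213, and was detected on 8 arrays. The median linear change of the 5 was 0.50, beside 0.01 over all genes. Among 7 tested genes of the hemidesmosome and its anchoring, 4 were time-dependent, 1 rose and 2 fell, with a median change of 0.05. CD151, PLEC and COL17A1 passed neither the spline test (limma, adjusted p = 0.173, 0.295 and 0.804) nor the linear one. CD9, a tetraspanin that associates with integrins, rose by 0.64 ± 0.10 (adjusted p = 0.00017). DST, which holds the keratin-linking protein BP230 among its products, fell by 0.79 on the log2 scale (SE 0.20, adjusted p = 0.00716) and the basal keratin KRT5 fell by 0.47 (SE 0.12, adjusted p = 0.00775), and COL7A1, the anchoring fibril collagen, changed by 0.57 ± 0.21 (adjusted p = 0.0577).

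Of 18 matrix ligands 10 were tested, 9 of them time-dependent, with 2 rising and 4 falling and a median change of -0.23. TNC, the tenascin that binds ITGB6 integrins, fell by 3.05 on the log2 scale (SE 0.19, limma, adjusted p = 8.61e-09) and stood at 0.129-fold of 0 h at 45 h. Its log2 signal was then 6.39, below the lowest value of the dim ITGB6 (6.66). How far the size of the TNC fall depends on the background correction was not tested. The basement membrane collagen COL4A1 fell by 1.13 (SE 0.22, adjusted p = 0.000856). CCN1 and CCN2, matricellular integrin ligands listed on the array as CYR61 and CTGF, were time-dependent (adjusted p = 0.00874 and 0.000399) with lowest values at 18 h. FN1, the ligand of ITGA5, was not detected on enough arrays to be tested. Of 26 tested adaptors and focal adhesion genes, 14 were time-dependent, 2 rose and 4 fell, with a median change of 0.07, and 10 were lower from 12 to 21 h than from 0 to 9 h, beside 2084 of 11607 genes. FERMT1, the kindlin of epithelium (C20orf42 on the array), fell by 2.10 (SE 0.26, limma, adjusted p = 1.66e-05). FERMT2, a further kindlin, passed the spline test (adjusted p = 0.00865) with a linear change of 0.15 ± 0.35 (adjusted p = 0.801). TLN2 and TES passed the spline test (adjusted p = 0.000768 and 0.000843) with linear changes of -0.48 ± 0.39 (adjusted p = 0.411) and -0.87 ± 0.32 (adjusted p = 0.0594).

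**Figure D5:**
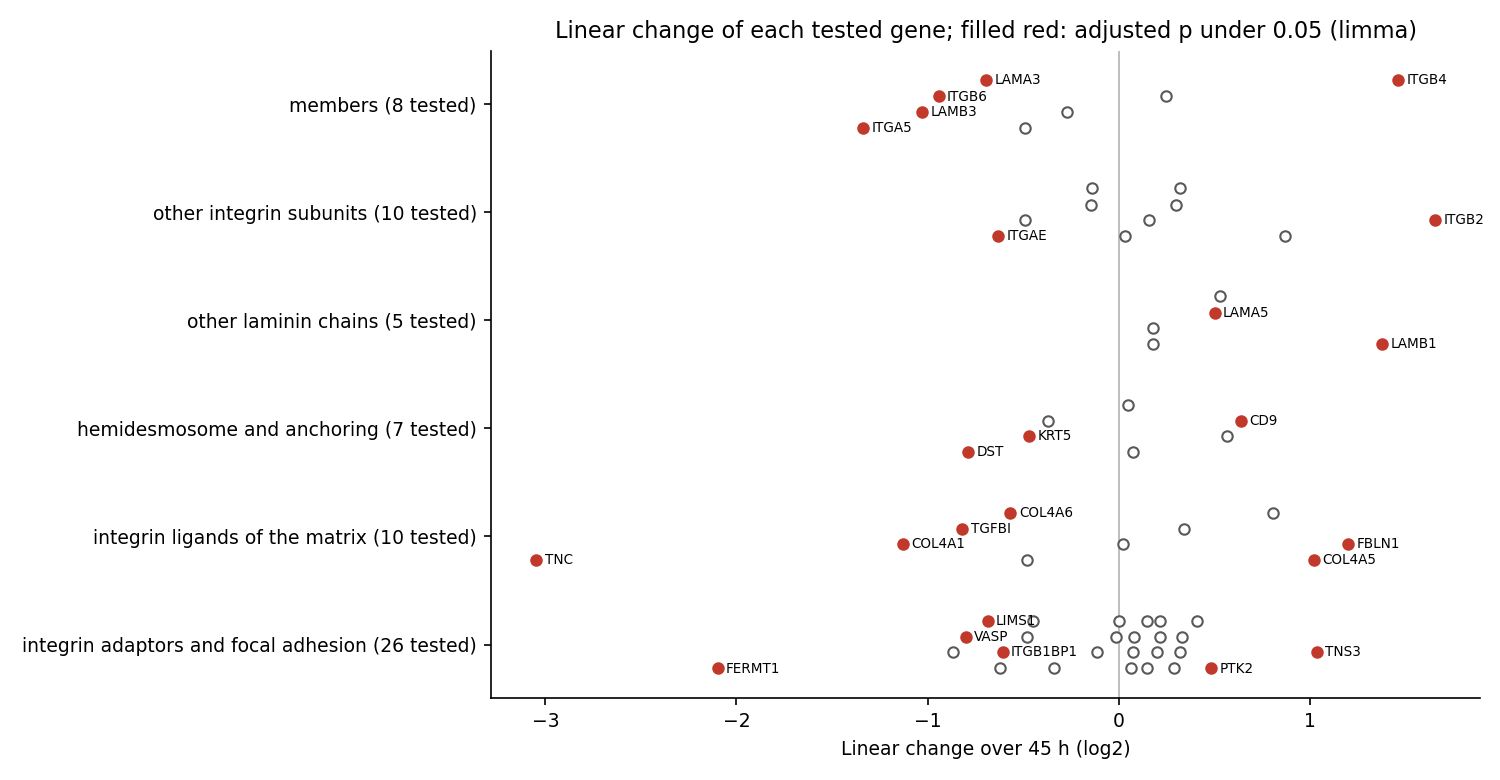
Linear change over 45 h in log2 units (x axis) of each tested gene, grouped into the 8 tested members and 5 lists (y axis). Filled red points with names passed an adjusted p of 0.05 in limma, and ITGB4 has a larger rise than every listed gene except ITGB2.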

How the data were processed

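The array was the Illumina human Ref-8 v2 beadchip and, according to the methods of the study, arrays were quantile-normalized there. The values the authors deposited are an intensity per probe and array, before normalization, and a detection p-value beside it. For 19085 probes the listed detection p-values are whole multiples of 1/708 and follow the signal, which gives each array a detection limit at a p of 0.05. For 1504 probes (7.3%) they do not follow the signal, and how they were made is not given in the sources used here. Intensities were therefore corrected with the steps of neqc in limma 3.58.1 (R 4.3.3), with background moments inferred from the 19085 probes, an offset of 16 and quantile normalization, on the log2 scale. Plain neqc had been planned, and both this change and the detection limit by signal were chosen after seeing the data. Probes above the detection limit on 3 or more arrays were tested (12378 probes, 11607 symbols), which left out 39.9%.

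Time was fitted in lmFit, with the trend option of eBayes, as a natural cubic spline with 4 degrees of freedom, as a straight line given as change over 45 h with SE, and as 4 sets of 4 successive arrays. P-values were adjusted by Benjamini-Hochberg over all probes, with 0.05 as the threshold. Folds are of the 0 h array, and 1.7-fold is the criterion by which the study included genes, which names no baseline. The study then called genes by the ratio of MCF10HER2 to MCF10A, which was not used here. The scripts were tested on simulated data. Genes named were all members, ITGAV, the 4 genes of each list with the largest fitted range, and the 3 genes most correlated with each time-dependent member. FN1, CD151, PLEC, COL17A1, the markers and other probes were added for context after their values were seen. Members and lists were chosen with earlier results of these data known. A few genes and 1 partner ratio, which stayed in the adjustment over 6 ratios, are not reported here and were left out of the list counts. Promoters came from RefSeq GRCh38.p14, and Python 3.11.15 was used for the permutations and plots. Alternatives covered background correction, scaling, the detection filter, probe choice, eBayes without the trend, the spline, single arrays and array groups. Probe choice was not varied for the partner ratios.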

Additional observations from a re-analysis of the deposited data

How the results depend on the processing

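The counts of time-dependent genes, of genes called between time sets and of genes past 1.7-fold stayed within 1.5 times their main value under every alternative run, with 5 to 8, 5 to 7 and 4 to 6 genes over all settings. The number of genes with a linear trend was 4 or 5 except where array groups entered. It was 0 with the 2 groups of 8 arrays as a block, 0 with the 4 time sets as a block, 1 within 0 to 21 h and 2 within 24 to 45 h. Those fits use fewer arrays or add terms for the block, and what lowered the count was not tested. Among the 5 genes with a linear trend, directions turned within 0 to 21 h for ITGB6 (0.54) and LAMA3 (0.79), within 24 to 45 h for ITGB4 (-0.33), and with the 4 time sets as a block for ITGA5 (1.20), LAMA3 (0.66) and LAMB3 (0.26), none of them past the threshold. Of the 3 without one, ITGA2 turned within 0 to 21 h (0.12) and with the 4 time sets as a block (0.61), and ITGA3 (0.23) and ITGB1 (-0.17) within 24 to 45 h. Leaving out 1 array at a time gave 5 to 8 time-dependent genes, 4 to 5 with a linear trend, 5 to 7 called between time sets and 5 to 6 past 1.7-fold.

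Of the partner ratios given, 4 passed the test as reported, 1 within 0 to 21 h, 0 within 24 to 45 h, 2 with no background correction, 0 with median scaling and 0 to 4 without single arrays, and the cause was not tested. The sign turned within 0 to 21 h for ITGB6 to ITGAV (0.98) and within 24 to 45 h for ITGB1 to ITGA3 (-0.41) and LAMB3 to LAMA3 (0.82). With background moments from all listed detection p-values, an alternative chosen after seeing the data, 2 ratios passed, and the linear change of ITGB6 was -0.18 in place of -0.94. The inferred background SD was then 212 to 491 in place of 23.9 to 48.4, and the inferred background mean 186 to 267 in place of 148 to 191. Which of these made the ITGB6 change smaller was not tested. With detection p as listed, also chosen after seeing the data, LAMB3 was not tested. No paired analysis was possible because single arrays stand for the time points. The dim members ITGA2 and ITGB6 and the undetected ITGA6 are limited by signal over background.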
